A study of Homo sapiens with 3 samples.

Results

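The 10 genes described here are markers of intestinal epithelium and of its mature cells: the transcription factors CDX1, CDX2 and HNF4A, the brush border protein VIL1 (villin), the adhesion molecules CDH1 and CDH17, the surface proteins GPA33 and CEACAM5, the lectin LGALS4 and the mucus peptide TFF3. They were taken by gene name from the scanner files, leaving out control spots, and stand against 17460 genes that could be named on the same arrays. The 10 genes have 18 probes on 27 spots per array, and 1 of these spots lies in the first 9 columns of the array. YB5 cells, a clone of the colon cancer line SW48 in which a single GFP reporter is silenced by promoter methylation, were given 25 nM decitabine, carboplatin (20 µM by the sample labels) or both drugs, in 4 doses from day 1 to day 4, and were harvested on day 6. Each treatment was measured once, on 1 of 3 dual-colour Agilent whole-genome arrays that share a slide, with treated RNA in green (Cy3) and RNA of control cells given the solvent DMSO in red (Cy5). All values come from this 1 clone in culture, which carries the reporter in treated and control cells alike.

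CDX2 and CDX1 are homeobox proteins that set intestinal identity in the embryo and maintain it in the adult gut, and HNF4A is a nuclear receptor that works beside them at genes of absorptive cells. Their known targets include brush border and adhesion genes such as VIL1 and CDH17. Decitabine is a cytosine analogue that traps DNA methyltransferases and lowers DNA methylation, and carboplatin crosslinks DNA.

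The levels in control cells were checked first. With a gene represented by its brightest probe, the control channel was well above background on all 3 arrays for 7 of the 10 genes, and on some arrays for 1 more, LGALS4. CDX1 and GPA33 were not well above background in either channel on any array by their representing probes. The cells therefore showed CDX2, HNF4A, VIL1, CDH1, CDH17, CEACAM5 and TFF3 signal, while CDX1 and GPA33 gave no usable change. Promoter sequences came from RefSeq (GRCh38.p14). The table held CDX2, HNF4A, LGALS4, CEACAM5 and GPA33, which matches 5 of the 10 genes, and CDX1, VIL1, CDH1, CDH17 and TFF3 had no entry. CpG dinucleotides are the sites that DNA methyltransferases act on, so the promoters with the most and the fewest of them are shown here as the 250 bases before the start site, 5′ to 3′, with each CpG in capitals. The first is chr13:27969316-27969565 and the second chr1:167090378-167090627, both on the minus strand of GRCh38.p14.
CDX2: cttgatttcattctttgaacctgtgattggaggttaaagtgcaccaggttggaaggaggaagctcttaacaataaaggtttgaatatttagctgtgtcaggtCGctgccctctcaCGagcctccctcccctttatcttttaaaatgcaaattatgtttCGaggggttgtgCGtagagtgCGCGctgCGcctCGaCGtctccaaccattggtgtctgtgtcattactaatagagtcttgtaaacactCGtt
GPA33: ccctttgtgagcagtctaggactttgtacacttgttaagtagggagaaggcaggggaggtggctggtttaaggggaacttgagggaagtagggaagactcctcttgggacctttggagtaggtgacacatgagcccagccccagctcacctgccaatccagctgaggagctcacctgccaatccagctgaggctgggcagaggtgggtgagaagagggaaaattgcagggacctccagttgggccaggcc
The CDX2 window held 10 CpGs, both HNF4A windows 8 each, LGALS4 6, CEACAM5 2 and GPA33 none, against a median of 11 over 35116 promoters of the same length. The letters TTTAT, the core that CDX proteins bind, occurred on either strand 2 times in the CDX2 window and 1 time in that of CEACAM5, and 32.7% of all promoters held them at least 1 time. No methylation was measured in these files.

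Probes decide what is read of a gene, and the 7 listed here belong to genes whose results turn on 1 or several probes. Each line gives the first 30 of the 60 bases, as the scanner file lists them, and the last 3 belong to HNF4A.
CDH1, A_23_P206359: aaatcaaccctgcaatcactttttggaatt
VIL1, A_24_P68214: cacctatgtaggcgtggtggacggagagaa
VIL1, A_23_P16866: ctgattgtagggtctcattttctcaccgat
VIL1, A_23_P209527: acactggtttgccattctgttccttttaag
HNF4A, A_32_P169688: actcattatatagcaaacattcagcaatta
HNF4A, A_23_P28761: catgaagaaggaagccgtccagaatgagcg
HNF4A, A_24_P10751: tccaacaccacctctacagaggccaaggag
By the hg19 positions in the scanner file, the CDH1 probe lies at chr16:68869214-68869273. The VIL1 probes lie at chr2:219294055-219294114, chr2:219314095-219314154 and chr2:219314819-219314878, so the last 2 are 665 bases apart and the first is 19981 bases upstream of them. Exon and UTR borders of that build were not used here. No member probe shared a run of 20 bases with an array probe of another gene.

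Array quality and the treatment labels were checked before the changes were read. Between 68.2% and 70.3% of spots were well above background in the control channel, and between 65.8% and 68.5% in the treated channel. On the decitabine-labelled array, spots in the first 9 columns had a median log2 change of 0.75, against -0.02 elsewhere, and all such spots were left out of the averages on every array. Of 13 measured p53 targets, genes that respond to DNA damage, 13 rose at least 1.5-fold on the decitabine-labelled array, 7 on the carboplatin-labelled array and 13 with both drugs. Cancer-testis genes, a class known to be silenced by methylation, rose in 0 of 1, 3 of 4 and 2 of 6 above background on the same arrays. Over all genes the shares that rose were 6.53%, 3.63% and 9.77%. Cancer-testis genes are a class that decitabine is known to raise, but on the decitabine-labelled array 11 of 12 measured had no channel above background. Their counts thus cover different genes on each array, since a gene silent in control cells is counted only where treated cells read it. More genes passed 1.5-fold on the decitabine-labelled array (853 up and 888 down) than on the carboplatin-labelled array (483 and 242). Whether the labels of the single-drug arrays were exchanged was not tested, and a direction tied to 1 drug is open to that. The arrays are called by their labels (decitabine-labelled, carboplatin-labelled and combination).

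A change is given as the log2 ratio of treated over control after loess, and a gene was counted as changed at 1.5-fold or more, the limit the study used. With 1 array per treatment there was no test. Repeated spots of 264 probes had an SD of 0.08, 0.07 and 0.08 on the decitabine-labelled, carboplatin-labelled and combination arrays, and of 0.11 on each array for the 88 dimmest. The normalized control channel of a gene had a median range of 0.13 log2 over the 3 arrays, and 95% of 12608 genes stayed within 0.32. The first covers technical error within an array. Whether the second also holds spread between cultures is not known, since the sources do not say if the control channels share 1 extract. A probe's preference for 1 dye is part of every change, since no dye was swapped.

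Of the 8 members above background, 3 fell on the decitabine-labelled array (VIL1, CDH1 and CDH17) and 0 rose. Over all genes tested on that array 6.8% fell and 6.53% rose. On the carboplatin-labelled array 1 of 8 rose, VIL1, and 0 fell, where 3.63% of all genes rose and 1.82% fell. With both drugs 2 of 8 fell, CDH1 and CDH17, and 0 rose, where 7.83% of all genes fell and 9.77% rose. Counts this small, over genes chosen with earlier results known, describe these 10 genes and nothing beyond them. The median change of the 8 members was -0.02, -0.06 and -0.15 on the decitabine-labelled, carboplatin-labelled and combination arrays, beside -0.03, -0.01 and 0.00 for all genes. In RNA of whole cultures, fewer expressing cells and less RNA per cell cannot be told apart.

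**Figure D1:**
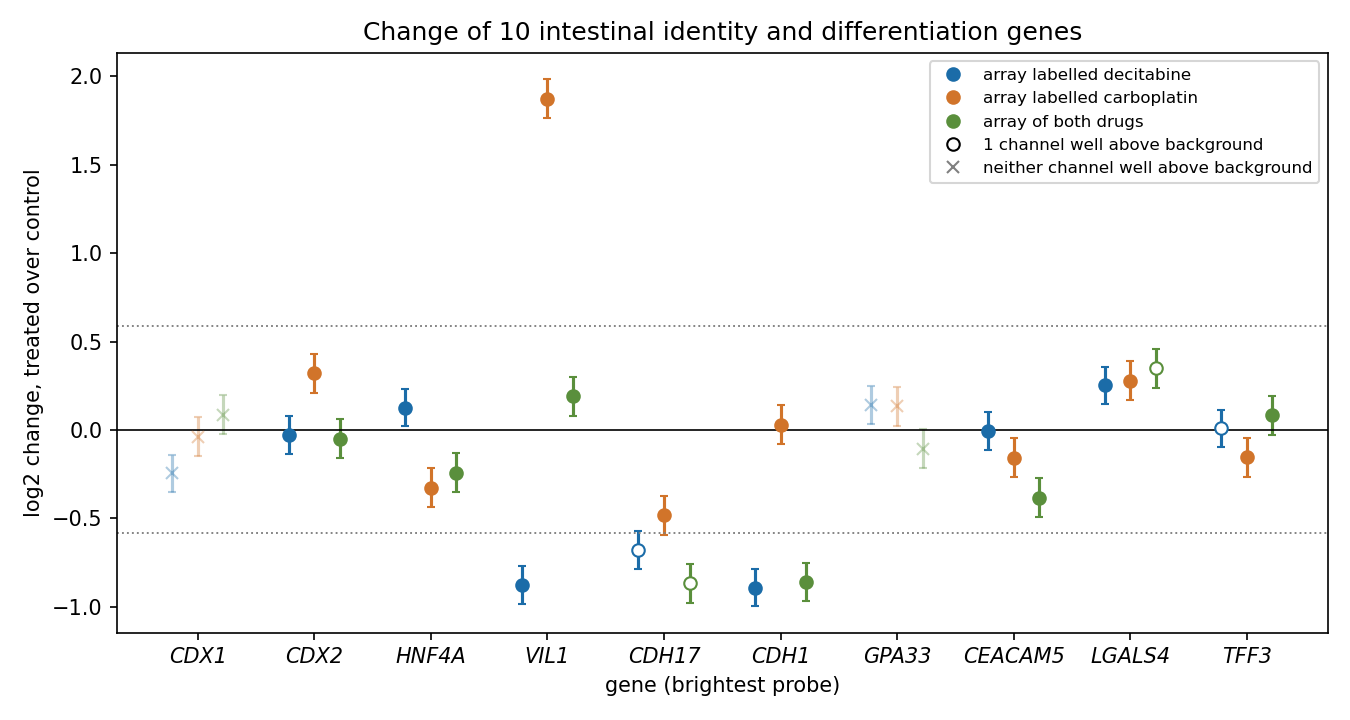
Log2 change of treated over control (y axis) for the brightest probe of each of the 10 genes (x axis), 1 point per array, with bars of 1 SD of the 88 dimmest repeated probes (0.11) and dotted lines at 1.5-fold. VIL1 runs from -0.88 to 1.87, CDH1 sits near -0.9 on 2 arrays and at 0.03 on the carboplatin-labelled array, and CDH17 is below 0 on all 3.

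VIL1 encodes villin, which bundles and severs actin in the microvilli of absorptive cells, and it had the largest change among the members read above background in both channels. Its brightest probe read a mean signal of 107 in treated and 387 in control cells on the decitabine-labelled array, 694 and 411 on the carboplatin-labelled array, and 233 and 353 with both drugs. After normalization the control level was 8.14, 8.08 and 8.14 on the log2 scale, a range of 0.06, while the treated level was 7.27, 9.96 and 8.34. The treated channel thus lay below its control on the decitabine-labelled array and far above it on the carboplatin-labelled array. The log2 changes were -0.88 (1.84-fold lower), 1.87 (3.66-fold higher) and 0.19 (1.14-fold higher).

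The other VIL1 probes moved in the same directions on the single-drug arrays. A_23_P16866 changed by -0.80, 1.63 and 0.07 in the same order of arrays. A_24_P68214, dim on every array, changed by 0.63 on the carboplatin-labelled array. All 3 probes thus passed 1.5-fold upwards on the carboplatin-labelled array, while 2 of them passed it downwards on the decitabine-labelled array. For the dim probe only limits hold elsewhere. It was at least 1.14-fold lower on the decitabine-labelled array, where treated cells were not well above background. With both drugs, where control cells were not, the limit was 1.07-fold higher, which is within the SD of dim repeated spots and gives no direction. The change with both drugs was 1.07 above that on the decitabine-labelled array and 1.68 below that on the carboplatin-labelled array for the brightest probe (log2 differences 1.07 and -1.68), so it lay between them. Its sign with both drugs turns when each array is centred on its median in place of loess (-0.02).

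**Figure D2:**
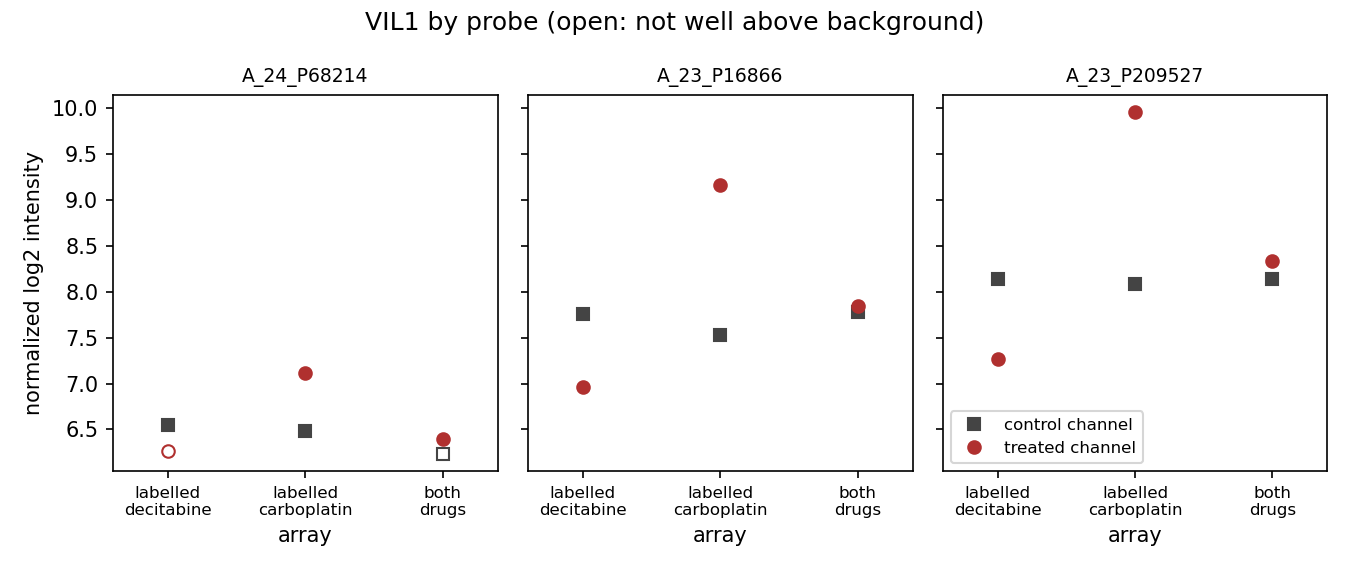
Normalized log2 intensity (y axis) of the control and treated channels on each array (x axis), 1 panel per VIL1 probe, with open symbols for channels not well above background. The control channel of A_23_P209527 stays between 8.08 and 8.14, while the treated channel takes 7.27, 9.96 and 8.34.

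CDH1 encodes E-cadherin, the adhesion molecule of epithelial adherens junctions, and its probe is spotted 10 times on each array. Outside the first 9 columns the mean signal was 5919 in treated and 25581 in control cells on the decitabine-labelled array, 10215 and 25014 on the carboplatin-labelled array, and 5750 and 21927 with both drugs. The treated channel was dimmer than control on every array before normalization, as the median green signal of each array was (163 to 167 against 282 to 315), and after loess it stayed lower on 2 arrays. The log2 change was -0.89 ± 0.04 (SD over 9 spots of 1 array) on the decitabine-labelled array, a 1.86-fold lower level. It was 0.03 ± 0.03 (SD over 9 spots) on the carboplatin-labelled array, a value that turned below 0 under 4 alternatives and was -0.52 under median centring. With both drugs it was -0.86 ± 0.04 (SD over 7 spots, 2 being marked as outliers), 1.82-fold lower. The spots of the first and last of these arrays, from -0.96 to -0.80 and from -0.90 to -0.79, overlapped each other and lay apart from the range of -0.02 to 0.08 on the carboplatin-labelled array. The spread over spots is technical, so this says how well 1 hybridisation was read. The normalized control level was 13.99, 13.94 and 13.94.

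The spot in the first 9 columns read 6377 in treated and 8533 in control cells on the decitabine-labelled array. Its control signal was well below the mean of the other spots, and the scanner software marked it as an outlier, so it has no change. The same spot gave 0.12 on the carboplatin-labelled array and -0.75 with both drugs.

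**Figure D3:**
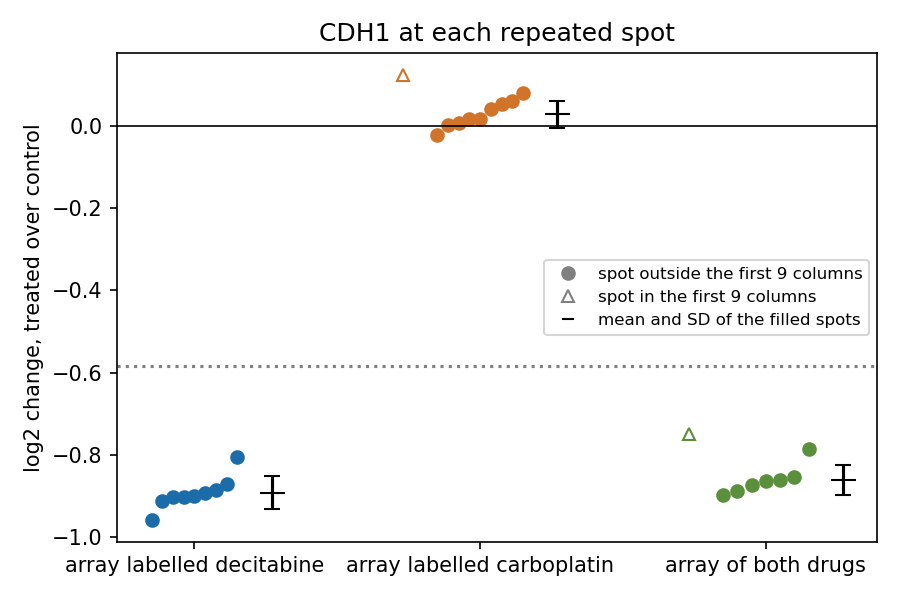
Log2 change of treated over control (y axis) at each repeated CDH1 spot on the 3 arrays (x axis), with the mean and SD of the spots outside the first 9 columns and, where it was not an outlier, the spot within them as an open triangle. The spots lie from -0.96 to -0.80 and from -0.90 to -0.79 on the decitabine-labelled and combination arrays, and from -0.02 to 0.08 on the carboplatin-labelled array.

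CDH17 encodes the liver-intestine cadherin, a cell adhesion protein of the enterocyte's lateral membrane. Its single probe read 58.9 in treated and 162 in control cells on the decitabine-labelled array, 76.6 and 167 on the carboplatin-labelled array, and 61.9 and 165 with both drugs. Control cells were well above background on all 3 arrays, and treated cells on the carboplatin-labelled array alone. After loess CDH17 was therefore at least 1.60-fold lower on the decitabine-labelled array and at least 1.83-fold lower with both drugs. Under median centring the change on the decitabine-labelled array was -0.58, just short of 1.5-fold. With both drugs it was then -0.79, a smaller fall than the limit after loess. On the carboplatin-labelled array the change was -0.48, or 1.40-fold lower, which is under 1.5-fold. That call depended on the processing: it was past 1.5-fold with an offset of 16 (-0.72), with processed signals (-0.91), in the log ratio of the scanner software (-0.96) and in the authors' table (-0.59). The normalized control level ranged by 0.17 log2, from 7.04 to 7.21, so the 3 control channels lay close together.

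CDX2, the factor that sets intestinal identity, was read well above background everywhere. Its mean signal was 1017 in treated and 2301 in control cells on the decitabine-labelled array, 994 and 1824 on the carboplatin-labelled array, and 876 and 1779 with both drugs. The log2 changes were -0.03, 0.32 and -0.05. The value of 0.32 did not exceed the range of the control channel of this probe over the arrays, which was 0.36, and under median centring it turned to -0.10. CDX2 passed 1.5-fold on none of the 3 arrays.

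HNF4A gave different answers by probe. Its brightest probe, A_32_P169688 at chr20:42986283-42986342, carries the accession of a cDNA that is no RefSeq transcript in the table used, and lies 49760 bases before the next probe. It changed by 0.13, -0.33 and -0.24 on the decitabine-labelled, carboplatin-labelled and combination arrays. The probe A_23_P28761, whose 60 bases are spread over chr20:43036102-43042379 as across a splice junction, changed by 0.23 on the carboplatin-labelled array, and A_24_P10751, at chr20:43058832-43058891, by -0.02. On the other arrays treated cells were not well above background at either probe, and only limits hold. With both drugs these were at least 1.18-fold and 1.25-fold lower. On the decitabine-labelled array the limit was 1.04-fold lower at both, which is within the SD of dim repeated spots and gives no direction. The probes thus differed in sign on the carboplatin-labelled array. No HNF4A probe passed 1.5-fold on any array.

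LGALS4 encodes galectin-4, a lectin of intestinal epithelium that takes part in apical protein traffic. Treated cells read 97.3, 96.3 and 96.5, almost the same on each array, while control cells read 142, 125 and 101 on the decitabine-labelled, carboplatin-labelled and combination arrays. The log2 changes were 0.25, 0.28 and 0.35, above 0 on every array and under 1.5-fold. With both drugs the control channel was not well above background, and the level was at least 1.27-fold higher. After normalization the treated level was 6.99, 6.89 and 6.80 and the control level 6.73, 6.61 and 6.45, so both channels differed between arrays. The scanner software's own log ratio, which subtracts background without an offset, gave 0.50, 0.89 and 1.58, which passed 1.5-fold on the last 2.

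CEACAM5, the carcinoembryonic antigen, is a surface glycoprotein of colon cells and of many colon cancers. Treated and control cells read 100 and 168, 79.1 and 141, and 74.9 and 142 on the decitabine-labelled, carboplatin-labelled and combination arrays. The log2 changes of -0.01, -0.16 and -0.38 stayed under 1.5-fold. With both drugs it passed 1.5-fold downwards with an offset of 16 (-0.60), with processed signals (-1.05) and in the log ratio of the scanner software (-1.07), which makes 3 member falls on that array. The value with both drugs was larger than the range of the control channel, 0.26, whereas the others were not. CEACAM5 belongs to a family of closely related genes, and transcripts of the others were not searched for the probe's sequence.

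TFF3, a trefoil peptide that goblet cells secrete with mucus, has 4 probes. The brightest changed by 0.01 (treated cells not well above background), -0.16 and 0.08, and A_23_P393099 by 0.25 with both drugs. At the latter probe treated cells were not well above background on the decitabine-labelled array, and neither channel was on the carboplatin-labelled array. The limit on the former, 1.06-fold lower, is within the SD of dim repeated spots and gives no direction. A_24_P245778 and A_24_P289208 were not well above background on any array. The brighter pair read higher with both drugs in both channels: A_23_P257296 read 120 in treated and 186 in control cells there, against 77.5 and 131 on the decitabine-labelled array. The control level of this probe ranged by 0.48 log2 over the arrays, more than any change of it. No TFF3 probe passed 1.5-fold.

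CDX1 and GPA33 were the members without a usable level. CDX1, a relative of CDX2, read 60.9 to 63.1 in treated and 81.0 to 91.6 in control cells. GPA33, the A33 antigen of intestinal epithelium, read 65.4 to 69.4 and 87.3 to 94.1 by its representing probe. Neither was well above background in either channel, and no change is given. The second GPA33 probe, A_24_P319374, was well above background in control cells on the decitabine-labelled array alone. Its log2 change there, -0.06, was smaller than the SD of 0.11 of dim repeated spots, so no direction is read from it.

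The change on the combination array was compared, member by member, with the single-drug changes added together, which is the change that would result if the drugs added on the log2 scale. Of the members, 5 were above background in both channels on every array by their brightest probe (CDX2, HNF4A, VIL1, CDH1 and CEACAM5). Their median difference was -0.22, from -0.80 for VIL1 to 0.00 for CDH1. HNF4A counts here by its brightest probe alone, which has no RefSeq accession. CDH17, LGALS4 and TFF3 had a channel not above background on 1 or more arrays, so no value is given for them singly, and with these 3 included the median was -0.11. Over 12739 genes read by the same looser rule the median was 0.01, with 90% of genes between -0.43 and 0.47. The difference was -0.34 for CDX2, -0.22 for CEACAM5 and -0.04 for HNF4A. These values depend on the processing: under median centring the difference was 0.18 for CDX2, 0.29 for HNF4A and 0.63 for CDH1. That of CEACAM5 was -0.96 with processed signals, and that of VIL1 was -0.45 by the scanner software's log ratio. With its probe matched by accession HNF4A gave -0.40. Each rests on 3 hybridisations, and the sign of the median over the 8 turned under 3 of the alternatives tried.

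**Figure D4:**
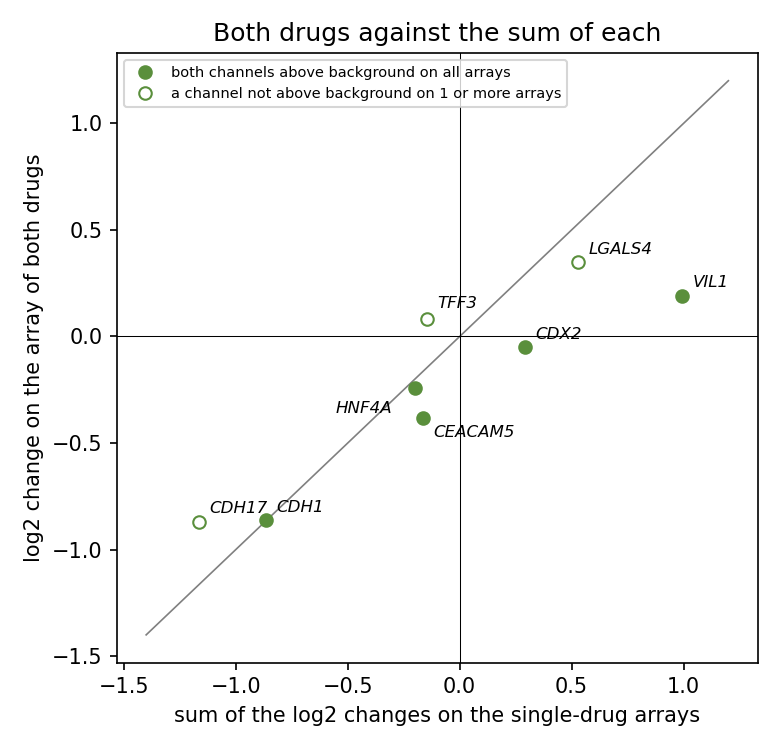
Log2 change on the combination array (y axis) against the sum of the changes on the single-drug arrays (x axis), 1 point per gene, with the line of equality. Filled points are the 5 members with both channels above background on every array, of which VIL1 lies furthest below the line (-0.80), and open points are the 3 with a channel that was not, whose place is approximate.

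Genes of related lists were read the same way to place the 10, beside 6.53%, 3.63% and 9.77% of all genes that rose and 6.8%, 1.82% and 7.83% that fell on the decitabine-labelled, carboplatin-labelled and combination arrays. The median changes of all genes were -0.03, -0.01 and 0.00. Of 18 intestinal transcription factors, 13 to 14 were above background on an array, and 1, 0 and 1 rose while 2, 3 and 3 fell on the decitabine-labelled, carboplatin-labelled and combination arrays. GATA6, a factor of endoderm and gut epithelium, changed by -0.86, -0.76 and -1.39, and FOXA1, a pioneer factor of endoderm, by -0.75, -0.74 and -1.08. Both were thus lower than control on each array by more than 1.5-fold, while CDX2 was not. The list's median was -0.11, -0.09 and -0.30. ELF3, an epithelial ETS factor, changed by 0.60, 0.50 and 0.93. KLF5, a factor of crypt cells, changed by -0.70 on the carboplatin-labelled array and by 0.00 and -0.30 on the others.

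Of 31 other enterocyte and brush border genes, 11 to 15 were above background on an array, with 0, 0 and 3 rises, 0, 2 and 1 falls and medians of 0.00, 0.00 and 0.01. ESPN, an actin bundler of microvilli like villin, changed by 0.42, 0.44 and 1.27, and the bundler PLS1 by -0.42, -0.70 and -0.63. Neither followed the pattern of VIL1, high on the carboplatin-labelled array alone. Of 9 goblet and secretory genes above background 1, 0 and 1 rose and 1, 0 and 1 fell, and FCGBP, a mucus protein, changed by 0.82, -0.30 and 0.78, while the kallikrein KLK1 changed by -1.56, 0.07 and -0.91. Of 11 Paneth and enteroendocrine genes 4 to 7 were above background and 0 passed 1.5-fold.

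Among 26 epithelial junction and surface genes, 25 or 26 of them above background, 5, 1 and 6 rose and 0, 2 and 4 fell, with medians of -0.13, -0.15 and -0.14. The claudin CLDN4 changed by 0.78, 0.38 and 1.06 and CEACAM1, a relative of CEACAM5, by 1.54, -0.25 and 1.61, while CDH1 fell on the decitabine-labelled and combination arrays. The keratin KRT18, which has many processed copies that its probe may also read, changed by 0.83, 0.50 and 1.14. Of 11 mesenchymal genes 4 or 5 were above background, and 2, 1 and 2 rose and 0 fell, with medians of 0.00, 0.19 and 0.10. ACTA2, a smooth muscle actin, changed by 2.12, 0.91 and 2.11. VIM, the intermediate filament of mesenchymal cells, was at least 1.28-fold lower on the decitabine-labelled array and changed by -0.34 and -0.22 on the others. SNAI1, a repressor of CDH1, changed by 0.72, 0.41 and 0.88, and its part in the CDH1 values was not tested.

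Of 11 intestinal stem cell genes, 8 or 9 were above background, and 1 rose and 1 fell on each array, with medians of 0.16, -0.10 and 0.04. ASCL2, a stem cell factor, changed by 1.14, 0.88 and 1.19, and TNFRSF19 by -1.27, -0.60 and -1.55. Of 12 markers of other cell types, 4 to 6 were above background, and CD68, a lysosomal protein of macrophages that other cells also make, changed by 0.99, 0.40 and 1.53. Median centring moves the median of all genes by -0.39, -0.31 and -0.31 on the decitabine-labelled, carboplatin-labelled and combination arrays. Under it the signs of KRT18, SNAI1 and KLK1 turn on the carboplatin-labelled array. On the decitabine-labelled array KRT18, SNAI1, CLDN4, ELF3 and FCGBP then gave 0.08, 0.21, 0.31, 0.15 and 0.36, all under 1.5-fold. CEACAM1, ACTA2, ASCL2 and CD68 stayed past 1.5-fold there. With both drugs KRT18, SNAI1, ELF3 and FCGBP gave 0.39, 0.46, 0.57 and 0.42, also under 1.5-fold, while CLDN4 (0.68) stayed past it. On the carboplatin-labelled array ASCL2 (0.40) and ACTA2 (0.58) then fell short of 1.5-fold.

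**Figure D5:**
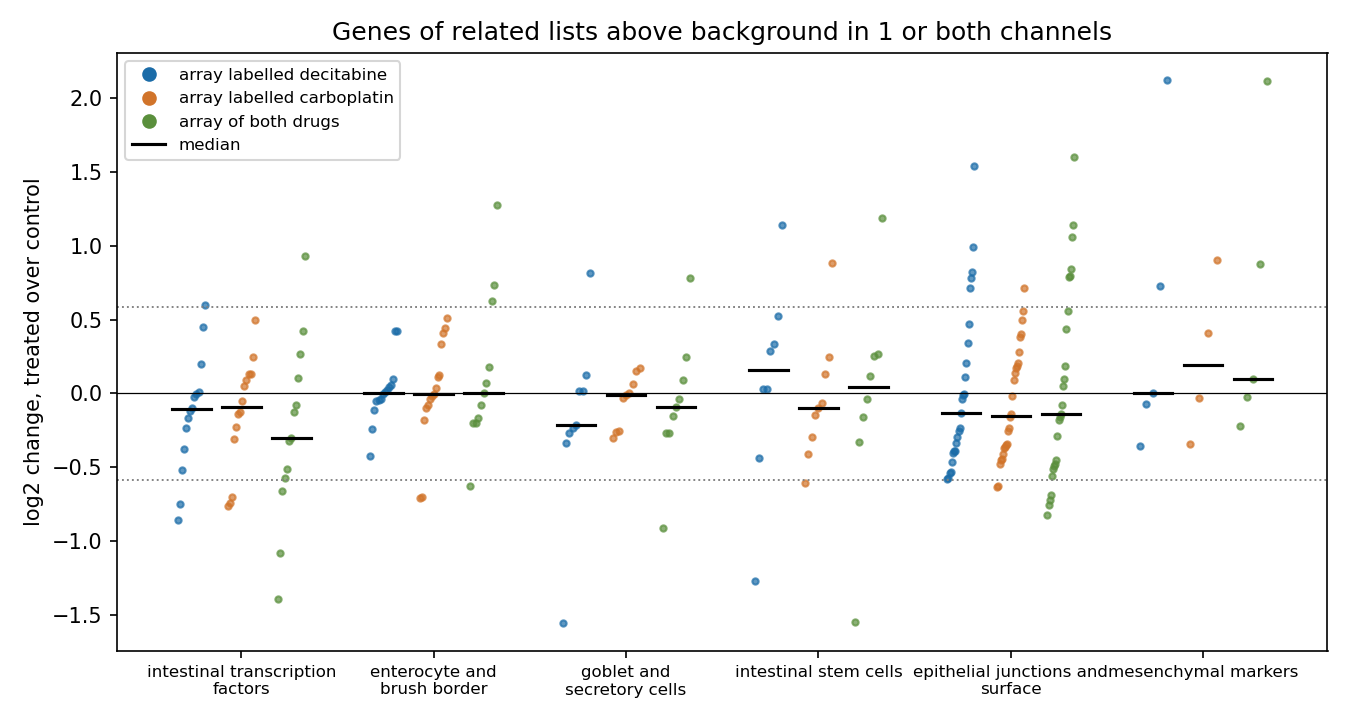
Log2 change of treated over control (y axis) of each gene above background in 1 or both channels in 6 related lists (x axis), 1 point per gene and array, with the median as a bar and dotted lines at 1.5-fold. List medians lie between -0.30 and 0.19, and single genes reach from -1.56 (KLK1) to 2.12 (ACTA2).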

How the data were processed

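Spot intensity was deposited by the authors as scanner files of Agilent Feature Extraction (9.5.3.1 by the headers), as mean and median signal and local background per channel, with processed signals and a log10 ratio of red over green. The submitters' notes name version 8.5.1.1. The deposited value table holds the authors' log2 ratios after loess, with column medians of -0.01, 0.00 and -0.01. Its direction is not stated and was read from its correlation with the scanner ratio of the same array (0.80, 0.73 and 0.82 on the decitabine-labelled, carboplatin-labelled and combination arrays), and its background step is unknown.

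Mean signals were corrected by normexp with an offset of 50, which compresses changes of dim genes, and normalized by loess within each array in R 4.3.3 with limma 3.58.1. Control spots, spots marked as outliers (276, 111 and 89) and spots in the first 9 columns were left out, the last after normalization. Channel levels came from limma's Aquantile scaling. Spots of a probe were averaged, and a gene was represented by the probe of highest mean intensity over the arrays. Of 41000 probes 29381 were named through RefSeq accession, symbol or older symbol. A gene was read on an array where its probe was well above background in 1 or both channels, and called at 1.5-fold. Where 1 channel was not, a limit was taken against the higher of the probe's own signal and the lowest signal well above background in that channel. Where the probe's own signal was the higher, the limit equals the change itself, and no limit allows for spot error. No column of the table was left unmapped.

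The members and lists were chosen with earlier results of these data known. All 10 genes and all their probes are named, and from each other list up to 4 genes with the largest change whose other probes above background moved the same way. The normalization was tested on control channels of different arrays set against each other, with bright probes changed by known folds. Dim probes were not changed in that test, so it does not cover members near background. Alternatives were other background and scaling choices, the authors' table, a 2-fold limit, outlier spots kept, genes above background in both channels, the first columns left out before normalization, and the mean of a gene's probes. Keeping the first columns and using probes matched by accession were added after the data were seen. Carboplatin was 20 µM by the labels and by a figure legend of the study, whose main text gives another dose.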

Additional observations from a re-analysis of the deposited data

Results flagged for a closer look

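VIL1 moved in opposite directions on the single-drug arrays. Its log2 change was 1.87 on the carboplatin-labelled array and -0.88 on the decitabine-labelled array, a difference of 2.75. With 1 array per treatment the difference was not tested.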

How the results depend on the processing

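With 1 array per treatment on 1 slide, no array could be left out and no slide effect could be fitted. No paired analysis was possible because each treatment has 1 array. What limits the values is signal over background: CDX1 and GPA33 gave none, and LGALS4, CDH17, CEACAM5 and TFF3 lay close to it. The falls of VIL1 and CDH1 and the rise of VIL1 passed 1.5-fold in the same direction under all 12 alternatives other than the 2-fold limit. Some of these alternatives return the main value by construction, such as the mean over probes for CDH1, which has 1 probe. CDH17 kept its direction in all 11 that gave a value, and on the decitabine-labelled array it missed 1.5-fold under median centring (-0.58). A 2-fold limit left 0 falls on the decitabine-labelled array and 0 on the combination array, and reading only genes above background in both channels left 1 fall on the latter. On the carboplatin-labelled array, processed signals and the scanner software's log ratio each gave 2 rises (VIL1 and LGALS4) and 1 fall (CDH17), and an offset of 16 and the authors' table gave that fall too (1 fall each). With both drugs, processed signals and the software's log ratio gave 1 rise each (LGALS4), and they and an offset of 16 gave 3 falls, CEACAM5 being added. The median change of the members on the decitabine-labelled array was -0.13 by the software's log ratio, -0.18 in the authors' table and -0.39 under median centring. On the carboplatin-labelled array it was -0.15 by the software's log ratio and 0.13 with probes matched by accession, and with both drugs it was -0.37 under median centring. The median difference from the sum of the single-drug changes was 0.043 with processed signals, 0.034 by the software's log ratio and 0.041 under median centring. Of 284 values of single members under an alternative, 196 moved by no more than the SD of repeated spots. Part of these could not move, as the alternative leaves the value of that gene unchanged by construction, so the share overstates how stable the values are. The causes were not tested.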
